A study of Mus musculus with 6 samples.

Results

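Messenger RNA of red blood cells was followed through 10 genes: 7 globins, the haem enzyme gene Alas2, the transcription factor gene Klf1 and the erythropoietin receptor gene Epor. They were taken by symbol from a deposited table of 20033 genes, and all 10 were found and passed the filter on low values, as did 17577 genes in all. The tissue is the mesonephros of male mice at E12.5 (days of gestation). The 3 knockout libraries carry a global deletion of Wnt9b, a Wnt ligand gene of the duct epithelium. The 3 control libraries are heterozygous by one label and wild type by the design text, and are called controls here. Neither the strain, the litters, the batches nor any perfusion of the tissue is given in the sources used here. Each library came from 1 numbered mouse, and nothing in the labels says more about how the embryos were related, so p-values measure the spread between these samples.

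The mesonephros forms the kidney of mid-gestation and later regresses in part, and its RNA includes that of the blood in its vessels. Red cells of the mouse embryo arise in successive waves. Primitive erythroid cells come from the yolk sac, circulate with a nucleus and make embryonic globins. Definitive erythroid cells come from the fetal liver and make adult globins only. Haemoglobin joins alpha-like and beta-like chains. Hba-x encodes the embryonic alpha-like chain zeta, and Hbb-bh1 and Hbb-y encode the embryonic beta-like chains. Hba-a1 and Hba-a2 encode adult alpha globin, which primitive cells make as well. Hbb-bs and Hbb-bt encode adult beta globin. Alas2 starts haem synthesis in red cells, Klf1 is a zinc finger factor needed for adult beta-globin transcription, and Epor passes on the survival signal of erythropoietin.

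The upstream sequences of 5 globin genes are shown because the results turn on the ratio of embryonic to adult members. Each line gives the 250 bases before the RefSeq start of the gene in GRCm38.p6, an older build than the GRCm39 that the submitters' processing notes name. Hbb-y lies at chr7:103853208-103853457, Hbb-bs at chr7:103827929-103828178 and Hbb-bt at chr7:103813924-103814173, all on the minus strand. Hba-x lies at chr11:32276350-32276599 and Hba-a1 at chr11:32283422-32283671, both on the plus strand. Capitals mark matches to 4 motifs on either strand, and matches can overlap. The letters CCNCNCCC are of the kind that Klf1 binds. The letters GATAA are bound by factors such as Gata1. The CCAAT motif is a common promoter element, and ATAAA resembles a core element near the start.
Hbb-y: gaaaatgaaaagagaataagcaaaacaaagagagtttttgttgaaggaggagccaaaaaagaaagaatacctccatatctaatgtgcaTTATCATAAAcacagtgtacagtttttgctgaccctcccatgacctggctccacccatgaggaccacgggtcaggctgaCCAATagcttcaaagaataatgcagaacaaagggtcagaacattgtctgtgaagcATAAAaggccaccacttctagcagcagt
Hbb-bs: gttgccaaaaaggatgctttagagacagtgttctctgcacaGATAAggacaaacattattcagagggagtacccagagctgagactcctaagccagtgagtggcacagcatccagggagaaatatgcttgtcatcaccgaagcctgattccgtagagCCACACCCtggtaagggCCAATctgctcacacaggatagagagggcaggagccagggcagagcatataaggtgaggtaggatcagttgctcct
Hbb-bt: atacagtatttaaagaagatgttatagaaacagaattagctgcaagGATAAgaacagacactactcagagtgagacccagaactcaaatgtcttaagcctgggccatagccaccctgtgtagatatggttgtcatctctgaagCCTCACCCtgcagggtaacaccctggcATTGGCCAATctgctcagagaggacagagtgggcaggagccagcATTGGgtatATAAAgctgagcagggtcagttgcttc
Hba-x: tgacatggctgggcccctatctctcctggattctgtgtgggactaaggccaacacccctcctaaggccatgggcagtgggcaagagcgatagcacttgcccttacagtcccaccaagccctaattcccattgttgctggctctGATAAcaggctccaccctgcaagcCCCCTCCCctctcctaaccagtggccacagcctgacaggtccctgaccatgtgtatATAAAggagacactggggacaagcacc
Hba-a1: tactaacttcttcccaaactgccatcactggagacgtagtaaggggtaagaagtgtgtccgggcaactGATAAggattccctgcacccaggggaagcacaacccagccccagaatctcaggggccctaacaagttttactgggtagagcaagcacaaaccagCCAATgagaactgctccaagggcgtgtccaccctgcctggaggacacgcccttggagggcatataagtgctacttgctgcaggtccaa
In the adult beta genes, CCNCNCCC begins 93 bases before the start of Hbb-bs and 107 bases before that of Hbb-bt, and CCAAT begins 76 and 75 bases before them. The window of Hbb-y holds CCAAT 83 bases and ATAAA 28 bases before the start, and these letters hold no CCNCNCCC. Hba-x holds CCNCNCCC at 83 bases and GATAA at 107 bases. The Hba-a2 window is identical to that of Hba-a1 over 247 compared bases. Such matches are common: CCNCNCCC stands in 45.9% of 32851 promoter windows of this length, GATAA in 22.6%, CCAAT in 33.8% and ATAAA in 37.3%. They are a description of letters, not of binding.

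The libraries held at least 28687415 to 33574278 reads assigned to genes, as recovered from the deposited values. Of the mesonephros and duct markers, Wt1 lay between 211 and 239 TPM and Emx2 between 121 and 149 TPM. Gonadal soma markers were present too, summed at 88.1 to 174 TPM in knockouts and 49.2 to 70.4 TPM in controls. Which cells made Wt1 and Emx2 was not tested. Wnt9b had 23.4, 19.2 and 19.0 TPM in knockouts 1 to 3, against 24.9, 26.4 and 34.0 TPM in controls 1 to 3. Its log2 difference was -0.44 (SE 0.14; limma's adjusted p = 0.266), so the targeted gene did not pass the test used for the members. In the authors' deposited table Wnt9b passes, with a log2 fold change of -0.45 (adjusted p = 0.0263). A gene-level value would also count any transcripts that a deletion leaves, and is a weak check of genotype. Over all genes tested, limma passed 78 (0.444%) when its adjusted p had to be under 0.05. Of these, 23 (0.131%) were higher in knockouts and 55 (0.313%) lower. The count was 30, 22 and 242 (1.40%) without knockout 1, 2 or 3, and 28, 13 and 14 without control 1, 2 or 3.

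Knockout 3 stood apart in its liver markers. Alb, the albumin gene, had 0.928, 1.22 and 27.9 TPM in knockouts 1 to 3, against 0.263, 0.517 and 2.34 TPM in controls 1 to 3. Afp, the fetal alpha-fetoprotein gene, had 1.94, 1.13 and 38.1 TPM in knockouts, against 2.08, 1.37 and 3.63 TPM in controls. Apoa2 was at 13.1 TPM in knockout 3 and listed at 0 in the other 5 libraries. Summed over the 6 fetal liver markers found of 9 fixed, the level was 19.8 to 113 TPM in knockouts, against 21.5 to 31.1 TPM in controls, and the top value is knockout 3. All 4 markers that could be tested were highest there. The fetal liver is the organ in which definitive red cells mature, so the main values below are also given without this library. The part of liver RNA in them was not tested.

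No member passed the test between genotypes. Of 10 members, 0 were higher and 0 lower at a limma's adjusted p under 0.05, where 0.444% of all tested genes passed. At an unadjusted p under 0.05 there were 2, Hba-a1 and Epor, where 11.3% of all tested genes passed. None passed in the authors' deposited table, where 3.55% of genes with an adjusted p did, nor in limma-voom on recovered reads, where 1.53% did. The median log2 difference of the members, knockout minus control, was 0.22 (0.13 without knockout 3), beside -0.01 (-0.02) over all genes tested. Differences were above 0 for 9 of 10 members, and for 8476 of 17577 genes. The members share their libraries and are not separate readings. For Hba-a2, Hbb-y, Hbb-bh1 and Hbb-bt the sign turned in some fits that left out a library. Globin levels are those of a mixed tissue, in which fewer red cells and less RNA per cell cannot be told apart.

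**Figure D1:**
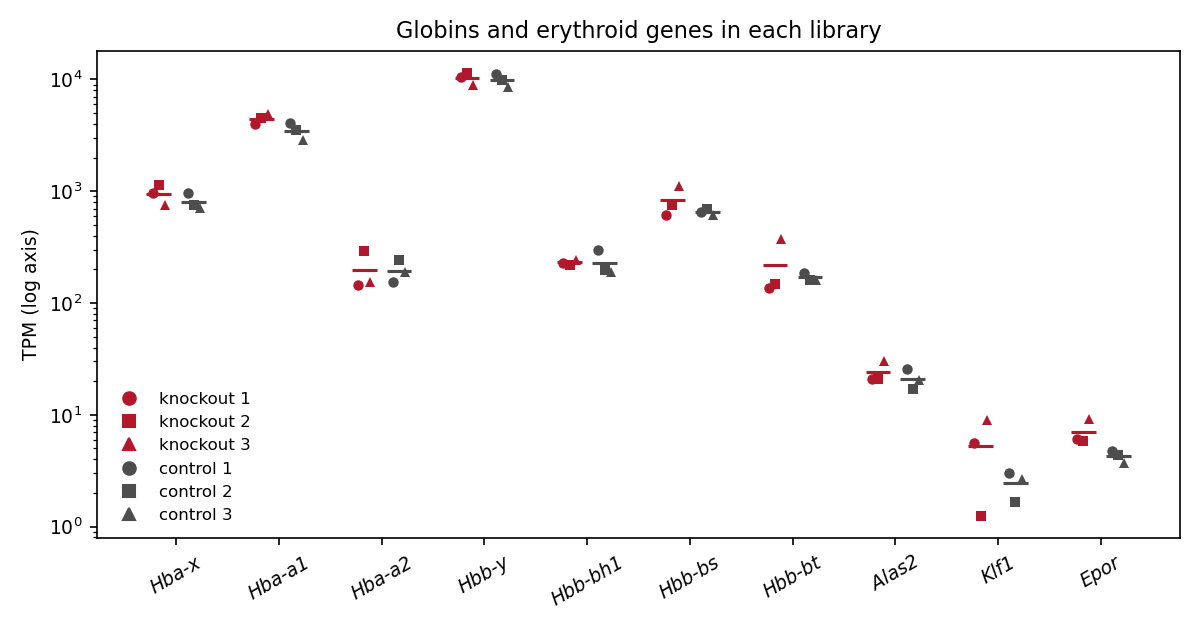
TPM of the 10 members on a log axis, in 3 knockout (left, red) and 3 control (right, grey) libraries; horizontal lines are group means. Hbb-y lies between 8488 and 11427 TPM, and only for Epor does every knockout value lie above every control value.

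Embryonic globins dominated. Hbb-y, the main beta-like chain of maturing primitive red cells, had 10454, 11427 and 8991 TPM in knockouts 1 to 3, against 11269, 9902 and 8488 TPM in controls 1 to 3. Knockout 2 was highest and control 3 lowest, but control 1 lay above knockouts 1 and 3, so the groups overlapped. Among all genes Hbb-y ranked 5 or 6 by TPM in every library. Its log2 difference was 0.06 (SE 0.13; 95% interval -0.25 to 0.37; limma's adjusted p = 0.908), and 0.15 without knockout 3. Hba-x had 967, 1139.7 and 753 TPM in knockouts, against 966, 748 and 709.5 TPM in controls, a log2 difference of 0.23 (SE 0.16; limma's adjusted p = 0.664). Without knockout 3 the difference of Hba-x was 0.39 (limma's adjusted p = 0.222), and knockout 1 was then above control 1 by a small margin. It was 0.37 without control 1, but 0.092 without knockout 2 and 0.14 without control 3. Hbb-bh1, the beta-like chain that precedes Hbb-y in primitive cells, had 229.8, 220.4 and 243 TPM in knockouts, against 298, 196 and 189 TPM in controls. The control range enclosed all knockout values, and the log2 difference was 0.05 (SE 0.16; limma's adjusted p = 0.934), or 0.02 without knockout 3.

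Adult alpha globin came next in level. Hba-a1 had 3966, 4489 and 4867 TPM in knockouts 1 to 3, against 4045, 3540.4 and 2875 TPM in controls 1 to 3. The groups overlapped, with control 1 above knockout 1. The means were 4441 ± 452 TPM in knockouts and 3487 ± 587 TPM in controls (SD, n = 3 each), a log2 difference of 0.36 (SE 0.13; 95% interval 0.05 to 0.67). That interval is not adjusted over genes; the limma's adjusted p was 0.363, and without knockout 3 the difference was 0.29 (limma's adjusted p = 0.362). In the authors' deposited table Hba-a1 has a log2 fold change of 0.35 (adjusted p = 0.0515). Hba-a2 had 144, 289 and 155 TPM in knockouts, against 153, 240.5 and 189 TPM in controls, with no separation of the groups (log2 difference -0.03, SE 0.26; limma's adjusted p = 0.977). Without knockout 3 the difference of Hba-a2 had the other sign, at 0.10. The split between these copies is uncertain: 266 of 550 windows of the 150-base read length in the Hba-a1 transcript also occur in that of Hba-a2. How reads that match both were counted is not given in the sources used here.

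In both adult beta globins knockout 3 was the highest library. Hbb-bt had 136, 146 and 377 TPM in knockouts 1 to 3, against 186, 161 and 162 TPM in controls 1 to 3. Knockout 3 was far above the rest, while knockouts 1 and 2 lay below every control. The log2 difference was 0.21 (SE 0.34; limma's adjusted p = 0.871) with all libraries and -0.26 (SE 0.081; limma's adjusted p = 0.173) without knockout 3. Hbb-bs had 616, 747 and 1119 TPM in knockouts, against 647, 700.1 and 613 TPM in controls. Knockouts 1 and 2 lay on either side of the control mean, and the difference of 0.30 (SE 0.19; limma's adjusted p = 0.620) became 0.06 (SE 0.10; limma's adjusted p = 0.811) without it. Of 479 read-length windows in the Hbb-bs transcript, 281 also occur in that of Hbb-bt, so reads of these copies can be split too.

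**Figure D2:**
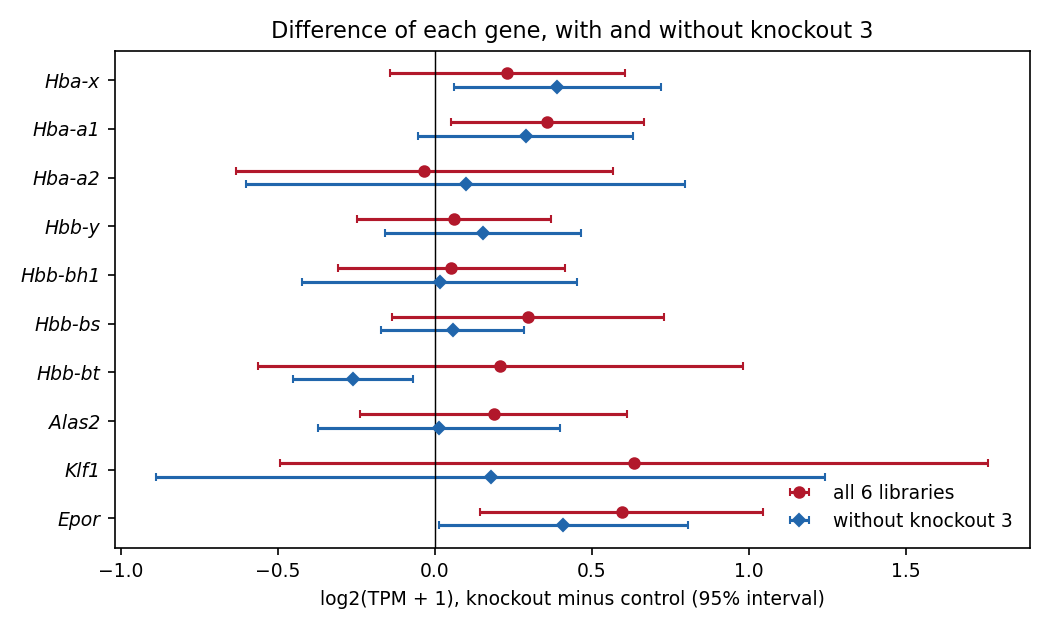
Difference of each member in log2(TPM + 1), knockout minus control, with limma's 95% interval, for all 6 libraries (circles) and without knockout 3 (diamonds). Hbb-bt is at 0.21 with all libraries and at -0.26 without knockout 3; the intervals are not adjusted over genes.

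By level, Hbb-y led, Hba-a1 followed, and then came Hba-x and Hbb-bs, whose ranges over libraries overlapped (709.5 to 1139.7 and 613 to 1119 TPM). Hbb-bh1 (189 to 298 TPM), Hbb-bt (136 to 377 TPM) and Hba-a2 (144 to 289 TPM) overlapped too. Together the 7 globins made up 1.65%, 1.85% and 1.65% of all TPM in knockouts 1 to 3, against 1.76%, 1.55% and 1.32% in controls 1 to 3. The log2 globin sum differed by 0.16, with overlap between the groups (exact permutation test, two-sided, p = 0.3). It was 0.19 without knockout 3, 0.11 without knockout 2, 0.26 without control 1 and 0.055 without control 3. With 3 libraries against 3 this test cannot go below 0.1. It was used for 9 sums and ratios, and the Benjamini-Hochberg adjusted values were 0.45 to 1.

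The ratio of embryonic to adult globins was lowest in knockout 3. Summed TPM of Hba-x, Hbb-bh1 and Hbb-y over that of Hba-a1, Hba-a2, Hbb-bs and Hbb-bt was 2.40, 2.25 and 1.53 in knockouts 1 to 3, against 2.49, 2.34 and 2.45 in controls 1 to 3. Knockout 3 was below the other 5 libraries, whose values lay between 2.25 and 2.49. The mean log2 ratio was 1.02 ± 0.35 in knockouts and 1.28 ± 0.05 in controls (SD, n = 3 each), a difference of -0.26 (exact permutation p = 0.2, two-sided; adjusted 0.6). Without knockout 3 it was -0.06. With mean log2 values of the genes in place of sums, which weigh each gene alike, it was -0.09 (exact permutation p = 0.9, two-sided). Leaving out Hba-a1 and Hba-a2, it was -0.21 (exact permutation p = 0.9, two-sided). The sums rest mostly on Hbb-y (54.5% to 64.2% of globin TPM) and Hba-a1 (21.7% to 29.5%). Primitive cells make Hba-a1 too, so the ratio of sums is not a measure of definitive cells alone. Embryonic chains made up 70.6%, 69.3% and 60.5% of globin TPM in knockouts, against 71.4%, 70.03% and 70.98% in controls.

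**Figure D3:**
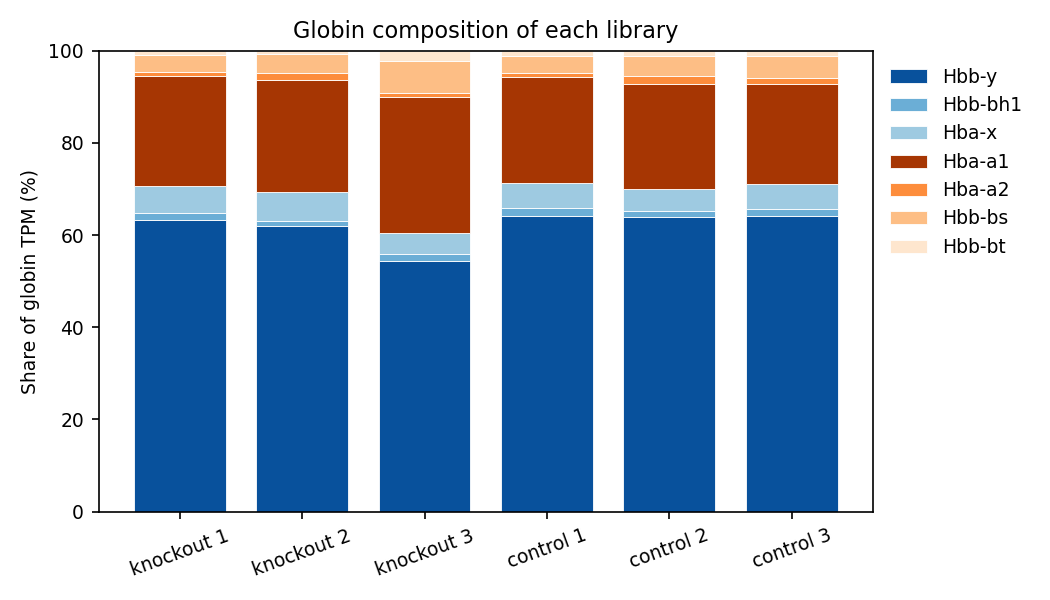
Share of globin TPM taken by each of the 7 globins in each library, embryonic chains in blue and adult chains in orange. In knockout 3 Hbb-y takes 54.5% and in the other 5 libraries 61.9% to 64.2%.

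The same library stood out in each chain class. Among beta-like globins, the embryonic to adult ratio was 14.2, 13.0 and 6.17 in knockouts 1 to 3, against 13.9, 11.7 and 11.2 in controls 1 to 3. The log2 difference was -0.22 (exact permutation p = 0.9, two-sided). Adult chains therefore took 13.9% of beta-like TPM in knockout 3 and 6.58% to 8.20% in the other 5 libraries. Among alpha-like globins, the ratio of Hba-x to adult chains was 0.235, 0.239 and 0.150 in knockouts, against 0.230, 0.198 and 0.232 in controls. The log2 difference was -0.11 (exact permutation p = 1, two-sided). Without knockout 3 both differences were above 0, at 0.15 for beta-like and 0.11 for alpha-like chains. The Hbb-y to Hbb-bh1 ratio, which orders early and late primitive expression, was 45.5, 51.9 and 37.0 in knockouts, against 37.8, 50.6 and 44.9 in controls (log2 difference 0.01; exact permutation p = 0.9, two-sided). Its log2 SD was 0.25 in knockouts and 0.21 in controls, so it varied more within groups than between their means.

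The balance of chains did separate the groups. Alpha-like over beta-like TPM was 0.444, 0.472 and 0.538 in knockouts 1 to 3, against 0.416, 0.413 and 0.399 in controls 1 to 3. Every knockout lay above every control. The log2 difference was 0.24 (exact permutation p = 0.1, two-sided, the smallest this design allows; adjusted 0.45) and 0.16 without knockout 3. With the groups fully apart, leaving out any library keeps them apart. The exact permutation p of 0.2 (two-sided, again the smallest possible) was therefore fixed beforehand and is no further check. Hba-a1 made up 75.9% to 84.3% of alpha-like TPM and Hbb-y 83.8% to 91.4% of beta-like TPM, and their own log2 differences were 0.36 and 0.06.

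**Figure D4:**
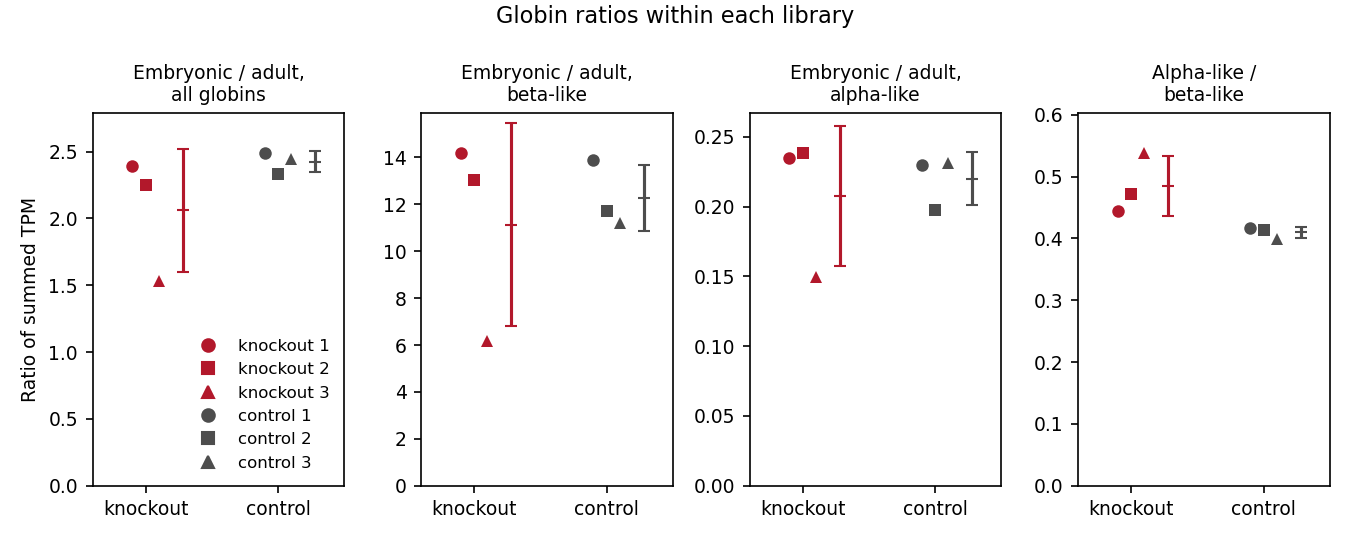
Ratios of summed TPM within each library for embryonic over adult globins (all, beta-like, alpha-like) and for alpha-like over beta-like globins; points are libraries, bars the group mean and SD. Knockout 3 (red triangle) lies lowest in the first 3 panels, and in the last panel knockouts span 0.444 to 0.538 and controls 0.399 to 0.416.

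The erythroid regulators were low. Epor had 6.07, 5.87 and 9.24 TPM in knockouts 1 to 3, against 4.70, 4.38 and 3.70 TPM in controls 1 to 3. It was the single member of 10 whose groups did not overlap, where 16.6% of all tested genes did not overlap, and 8.14% had every knockout above every control. The means were 7.06 ± 1.89 TPM in knockouts and 4.26 ± 0.514 TPM in controls (SD, n = 3 each), a log2 difference of 0.60 (SE 0.20; 95% interval 0.14 to 1.05; limma's adjusted p = 0.292). It was 0.41 without knockout 3 (limma's adjusted p = 0.278), and 0.207 is its adjusted p in the authors' deposited table. The reads behind these values number at least 59 to 154 per library. Per 1000 TPM of globin, Epor had 0.367, 0.318 and 0.560 TPM in knockouts, against 0.268, 0.283 and 0.280 TPM in controls (log2 difference 0.54; exact permutation p = 0.1, two-sided; adjusted 0.45).

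Klf1 had 5.60, 1.24 and 8.95 TPM in knockouts 1 to 3, against 3.02, 1.66 and 2.68 TPM in controls 1 to 3. Knockout 2 was the lowest and knockout 3 the highest of all libraries, on at least 16 and 115 reads. The log2 difference was 0.64 (SE 0.49; 95% interval -0.49 to 1.76; limma's adjusted p = 0.692). It was 0.18 without knockout 3 and 1.25 without knockout 2. Alas2 had 20.8, 21.0 and 30.4 TPM in knockouts, against 25.5, 16.9 and 20.4 TPM in controls (log2 difference 0.19, SE 0.19; limma's adjusted p = 0.772). Without knockout 3 the difference of Alas2 was 0.01. Per 1000 TPM of globin, Alas2 had 1.26, 1.14 and 1.84 TPM in knockouts, against 1.45, 1.09 and 1.55 TPM in controls (log2 difference 0.04; exact permutation p = 0.9, two-sided). Klf1 per globin differed by 0.58 on the log2 scale (exact permutation p = 0.5, two-sided), by -0.04 without knockout 3 and by 1.47 without knockout 2.

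The wider red cell programme and further globin genes were read from 7 lists of other genes, 79 of which passed the filter. None passed limma (0 higher and 0 lower), while 16 had an unadjusted p under 0.05, where 11.3% of all tested genes did. Limma-voom passed 1 (1.53% of all tested genes), and the authors' deposited table passes 4 (3.55% of its genes with an adjusted p). Of these 79 genes, 39 (49.4%) were highest in knockout 3, as were 6 of 10 members, where 22.7% of all tested genes were highest in that library. For the other 5 libraries the share over all tested genes was 10.1% to 22.0%. The lists hold genes with roles in red cells, not genes confined to them, so other cells of the tissue can add to these values. The list of other globin genes was drawn by family, with Cygb and Ngb among them, and not by a role in red cells. The part of red cells in them was not tested.

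Of 16 erythroid transcription factor genes tested, 7 were highest in knockout 3, and the median log2 difference was 0.14 (0.19 without knockout 3). The genes of highest level, the complex members Ldb1, Lmo2 and Zfpm1, had differences of -0.02, -0.09 and 0.13. Gata1, the master factor of red cells, had 1.69, 1.76 and 3.08 TPM in knockouts 1 to 3, against 0.590, 1.29 and 0.818 TPM in controls 1 to 3. Its groups did not overlap (log2 difference 0.73; limma's adjusted p = 0.321), on at least 14 to 63 reads per library. Groups did not overlap in 7 of the 16 genes of this list, where 16.6% of all tested genes did not overlap. Among these, Lmo2 and Runx1 had every knockout below every control. In the other lists, groups did not overlap in 3 of 12 haem synthesis genes and 2 of 10 of iron and haem handling. The counts were 5 of 16 for membrane and cytoskeleton, 3 of 10 for other red cell genes, 4 of 11 for erythropoietin signalling and 0 of 4 for other globins. Runx1, needed for blood stem cell formation, had 6.52 ± 0.194 TPM in knockouts and 9.83 ± 0.841 TPM in controls (SD, n = 3 each). Its limma's adjusted p was 0.169, while in the authors' deposited table it passes with a log2 fold change of -0.58 (adjusted p = 2.4e-05).

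Haem synthesis genes had 7 of 12 highest in knockout 3 and a median log2 difference of 0.12 (0.07 without it). Alad and Urod, enzymes of the pathway, had differences of 0.28 and 0.16, and Ppox had -0.05. Among genes of iron and haem handling, 6 of 10 were highest in knockout 3 and the median was 0.005. The ferritin genes Ftl1 and Fth1 differed by 0.12 and 0.07, and the iron regulatory protein gene Ireb2 by -0.08.

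Red cell membrane and cytoskeleton genes had 11 of 16 highest in knockout 3, with a median of 0.17 (0.07 without it). Gypc, Epb41 and Slc4a1 (band 3), those of highest level, differed by -0.01, 0.04 and 0.02. The authors' deposited table passes Ank1 (ankyrin, log2 fold change 0.81, adjusted p = 0.0283) and Ermap (0.85, adjusted p = 0.0451). Neither passed limma (limma's adjusted p = 0.490 and 0.407), and both were highest in knockout 3. Their log2 differences in limma were 0.48 and 0.63, and 0.29 and 0.36 without that library.

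Of 10 other red cell genes, 5 were highest in knockout 3, with a median of 0.43 (0.23 without it). Ahsp, which encodes a chaperone of free alpha globin, had 26.3, 22.6 and 111.7 TPM in knockouts 1 to 3, against 20.4, 14.7 and 29.3 TPM in controls 1 to 3. Hemgn, an erythroid nuclear protein gene, had 1.13, 0.759 and 8.46 TPM in knockouts, against 0.819, 1.45 and 0.199 TPM in controls. In both, knockout 3 was the outlying value and the other knockouts lay within or near the controls. Prdx2 and Bnip3l, abundant in red cells and also made by other cells, differed by 0.20 and -0.17.

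**Figure D5:**
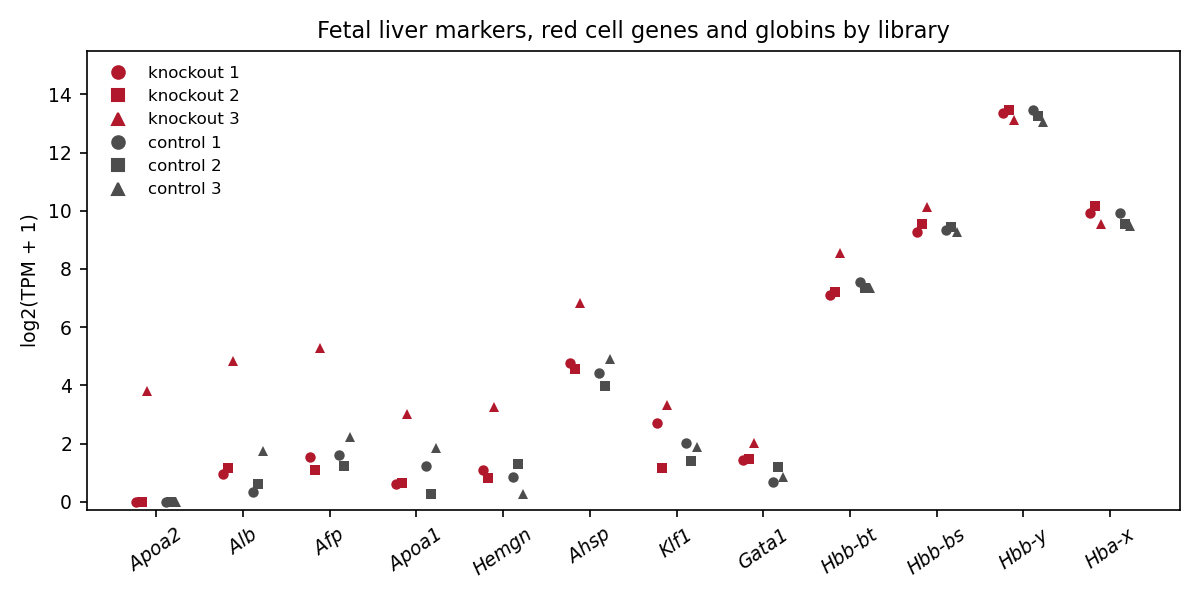
Levels as log2(TPM + 1) of fetal liver markers (Apoa2, Alb, Afp, Apoa1), red cell genes and globins in each library, knockouts left in red and controls right in grey. Knockout 3 (triangle) is highest for all genes drawn except Hbb-y and Hba-x. The genes were chosen after their values were seen and do not stand for the lists. Of 79 erythroid list genes 39 were highest in knockout 3, where 22.7% of all tested genes were.

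Of 11 erythropoietin signalling genes tested, 1 was highest in knockout 3, and the median log2 difference was -0.05 (0.03 without it). Jak2, Bcl2l1 and Pim1 differed by -0.23, -0.05 and 0.14. Kitl, the ligand gene of the Kit receptor, passes in the authors' deposited table (log2 fold change 0.32, adjusted p = 0.0318), with a limma's adjusted p of 0.244. Among 4 other globin genes tested, the median was 0.07 (-0.02 without knockout 3). Hbb-bh0 of the beta cluster had 33.7, 36.9 and 23.1 TPM in knockouts 1 to 3, against 48.6, 46.0 and 32.8 TPM in controls 1 to 3 (log2 difference -0.44; limma's adjusted p = 0.461). Its lowest value was in knockout 3. Cygb and Hbq1b differed by -0.07 and 0.33.

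Markers of endothelium, white cells and platelets held no gene that passed limma, where 0.444% of all tested genes passed. Without knockout 3, 1 endothelial gene passed, where 1.40% of all tested genes did. The authors' deposited table passes 2 endothelial genes and 1 platelet gene, and 3.55% of its genes with an adjusted p. The summed level of 9 endothelial markers was 416 to 453 TPM in knockouts, against 483 to 517 TPM in controls, with a median log2 difference of -0.25. For 10 markers of macrophages and white cells it was 137 to 163 TPM in knockouts, against 133 to 199.5 TPM in controls (median -0.18 over 9 tested). The genes of highest level, Cdh5, Emcn and Kdr in endothelium, differed by -0.28, -0.05 and -0.40, and C1qb, C1qa and Tyrobp of white cells by -0.26, -0.18 and 0.12. For 7 of megakaryocytes and platelets it was 78.0 to 101 TPM in knockouts, against 60.2 to 71.5 TPM in controls (median 0.28). Pf4, the platelet factor 4 gene, had 37.4, 48.2 and 45.0 TPM in knockouts 1 to 3, against 28.2, 23.2 and 31.5 TPM in controls 1 to 3 (limma's adjusted p = 0.112). In gonadal soma markers, Nr5a1 and Gata4 passed as higher in knockouts (2 of 5 tested), and the summed level was 88.1 to 174 TPM in knockouts, against 49.2 to 70.4 TPM in controls. In the mesonephros and duct list, Tcf21 passed as higher and Lhx1 as lower (2 of 8 tested), with a summed level of 714 to 831 TPM in knockouts and 651 to 709.9 TPM in controls. The part of these cell types in the globin values was not tested.

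Pairs of members were compared over the 6 libraries by the Pearson r of log2(TPM + 1), and classes of globin did not hold together throughout. Of the embryonic genes, Hba-x and Hbb-y had an r of 0.91 (0.89 without knockout 3), while Hbb-bh1 had 0.46 with Hba-x and 0.54 with Hbb-y. Of the adult genes, Hbb-bs and Hbb-bt had an r of 0.89, which was -0.08 without knockout 3, so their likeness rested on that library. Hba-a2 had an r of -0.07 with Hba-a1, -0.04 with Hbb-bs and -0.37 with Hbb-bt. Hba-a1 had an r of 0.50 with embryonic Hba-x and 0.46 with embryonic Hbb-y, and these were 0.94 and 0.98 without knockout 3. Against the log2 globin sum, Hbb-y, Hba-a1 and Hba-x had r of 0.85, 0.85 and 0.83, and Hbb-bt and Klf1 had 0.05 and -0.04. Hbb-y and Hba-a1 are the largest parts of that sum, so their r is partly that of a part with its whole. Hbb-bt is a small part of it and Klf1 none. The genes outside the members most like the globin sum were Rnaset2b, Pop7, A430046D13Rik, Mapk3, Rpl37-ps1, Ppp1r11, Gm27010, Cebpe, Ift43 and Tbx1, with r between 0.977 and 0.992. These are descriptions over 6 points that share their libraries, and with 17577 genes compared high values arise in number. Of 79 erythroid list genes 12 had an r over 0.5 with the globin sum, as did 2423 of all 17577 tested genes. The medians were 0.06 and -0.16.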

How the data were processed

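The labels' protocols give poly(A) selection of RNA from each of 6 mesonephroi, and paired-end sequencing with a read length of 150 bases. The authors deposited 1 table with a TPM column per mouse, in which each column sums to 1000000, and their own log2 fold change, p-value and adjusted p-value, per the file headers. The submitters' processing notes name DESeq2 and GRCm39; which tools aligned and counted the reads, and whether strand was used, is not given in the sources used here.

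A gene was kept when 3 or more libraries reached 1 TPM. Kept genes were tested with limma 3.58.1 under R 4.3.3, fitted to log2(TPM + 1) with its trend option and Benjamini-Hochberg adjustment over all of them; the step was tested on simulated data. Differences on this scale understate those of low genes. Ratios used exact permutation tests (scipy 1.17.1). TPM keeps no depth, but each of the 20033 genes was a whole multiple of 1 read in all libraries, to a tolerance of 0.02 reads. A factor common to a gene's 6 values is lost, so reads are lower bounds. Members and lists were chosen with earlier results of these data known. Of each list up to 3 genes of highest mean and up to 4 passing genes were named, and the 10 genes most like the globin sum; other named list genes were chosen after their values were seen. No library pair of a group agreed within counting noise (chi-square per degree of freedom at least 7.24). Same-numbered mice did not deviate together (r of -0.06 to 0.05), and numbers are used here only as names. With so few mice this cannot exclude litters or batches shared by number.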

Additional observations from a re-analysis of the deposited data

How the results depend on the processing

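Without 1 library at a time, the count of genes past limma (78) ran from 13 (without control 2) to 242 (without knockout 3), and the log2 difference from -0.35 to 0.15 for Hba-a2, -0.045 to 0.16 for Hbb-y, -0.064 to 0.26 for Hbb-bh1 and -0.26 to 0.47 for Hbb-bt. It ran from 0.092 to 0.39 for Hba-x, 0.23 to 0.47 for Hba-a1, 0.057 to 0.49 for Hbb-bs, 0.014 to 0.33 for Alas2, 0.18 to 1.25 for Klf1 and 0.41 to 0.70 for Epor. The globin sum ran from 0.055 to 0.26. The ratio differences ran from -0.38 to -0.06 for embryonic over adult globins, 0.16 to 0.30 for alpha-like over beta-like chains, 0.30 to 0.71 for Epor per globin, -0.45 to 0.15 for beta-like chains, -0.22 to 0.11 for alpha-like chains, -0.11 to 0.14 for Hbb-y over Hbb-bh1, -0.17 to 0.17 for Alas2 per globin and -0.037 to 1.47 for Klf1 per globin. Some of these omissions reversed signs, and none gave a passing member. The permutation tests of ratios could not have passed 0.05 under any setting.

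The replicate block gave 17 genes over all genes, though no pairing by mouse number is known. The block changed no call of a member or list. Limma-voom on recovered reads, added after seeing the data, gave 269 genes, and 1 gene of the red cell lists (Runx1). Without knockout 3 it gave 954 genes, 5 genes of those lists, and log2 differences of 0.12 for Hba-a2 and -0.23 for Hbb-bt, opposite in sign to those with all libraries. The cause was not tested. The other settings (pseudocount 0.1, no filter, median-ratio scaling, rescaling without erythroid genes, mean log2 values, leaving out Hba-a1 and Hba-a2) reversed no member and no ratio they were run on, though mean log2 values moved the embryonic to adult difference to -0.09, against -0.26 with sums. Low counts limit Klf1 (16 to 115 reads per library, as lower bounds) and Epor (59 to 154).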
